A study of Glycine max with 6 samples.

Results

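UDP-glycosyltransferases (UGTs) join a sugar, most often glucose from UDP-glucose, to a small acceptor molecule. In plants the acceptors include flavonoids, isoflavones, anthocyanidins, triterpene saponins, precursors of lignin and several hormones, and the sugar makes them more soluble and lets the cell store or move them. The enzymes are numbered by sequence, with digits for the family, a letter for the subfamily and a last digit for the gene. Soybean roots are known for isoflavones, which are kept in the vacuole as 7-O-glucosides and their malonylated forms and are released from roots into the soil.

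The genes described here were all those whose protein description, as deposited with the expression values, contained UDP-glycosyltransferase or UDP-glucosyltransferase, or glucosyltransferase together with flavonoid, isoflavone, anthocyanidin or flavonol. There were 109 such genes among 48667 genes. Glucosyltransferases and galactosyltransferases whose descriptions did not meet this rule are outside the 109 genes, and 48 of them are counted in a list below. A UGT number stood in the description of 79 of the 109 genes, with 31 different numbers in 17 families, and the other 30 had no number. A family below means only the genes whose description carries its number. The genes without a number were not assigned to a family, so counts and sums of a family can be incomplete. The rule used no expression value. Of the 109 genes, 105 carried a Glyma identifier of the reference annotation and 4 were genes predicted by the authors. The description of Glyma.05G181000, an anthocyanidin 3-O-glucosyltransferase, also names an aminotransferase.

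Roots of soybean (Glycine max) grown in hydroponic culture for 30 days were compared between acid-treated plants, in nutrient solution of pH 4.2, and control plants, in solution of pH 5.8, with 3 RNA-seq libraries at each pH. Each library held the roots of 2 plants. The genotype is given as YC03-3 in the sample labels and as Huachun 6 in the study's methods, and both groups are of the same genotype in either source. P-values set the difference between the pH groups against the spread between libraries of the same pH.

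The libraries held between 9137226 and 9335903 counts at pH 4.2 and between 9286525 and 9358750 counts at pH 5.8. On the first principal component of all genes, pH 5.8 replicate 2 lay at -11.5, between pH 4.2 replicate 1 at -23.1 and pH 5.8 replicate 1 at 60.1. Values without this library are given for the counts of called genes and for genes whose edgeR call changed. Other genes also moved without it. Genes of casparian strip membrane proteins, which mark the root endodermis, summed to 101.5 to 125.3 FPKM (fragments per kilobase of gene and 1000000 fragments) at pH 4.2 and to 38.3 to 122 FPKM at pH 5.8. The whole root list of 20 genes summed to 148.8 to 165.0 FPKM at pH 4.2 and to 120.8 to 184.3 FPKM at pH 5.8. Of its 17 tested genes, 1 was wholly higher and 4 were wholly lower at pH 4.2, with no overlap of libraries. The shares over all genes tested were 7.17% and 9.25%. The SHORT-ROOT-like gene of the root list, Glyma.15G028600, was called lower (log2 fold change -3.57, adjusted p = 0.0199 in edgeR). The 57 genes of the leaf list summed to 1686 to 2647 FPKM at pH 4.2 and to 1458 to 2281 FPKM at pH 5.8. The 23 genes of the nodule list summed to 414.7 to 456.8 FPKM at pH 4.2 and to 270.7 to 346.4 FPKM at pH 5.8. For the 30 genes of the seed list, the sums were 279.4 to 350.3 FPKM at pH 4.2 and 280.8 to 435.5 FPKM at pH 5.8. Wholly higher at pH 4.2 were 7 of 49 tested leaf genes, 3 of 13 nodule genes and 0 of 6 seed genes. Wholly lower were 0, 0 and 1 of them. No gene of these lists was called by edgeR. DESeq2 called 2 of 16 nodule genes higher and 1 of 10 seed genes lower, against 1.22% and 1.55% of all genes. The part of such cells in the results was not tested, and in whole roots fewer cells of a type cannot be told apart from less RNA per cell.

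Most UGT genes were expressed at a low or moderate level in these roots. Over the 6 libraries, 19 of the 109 genes averaged under 0.1 FPKM, 25 averaged 0.1 to 1 FPKM, 30 averaged 1 to 5 FPKM, 26 averaged 5 to 20 FPKM, 8 averaged 20 to 100 FPKM and 1 averaged 100 FPKM or more. All 109 genes together made up between 0.0893% and 0.132% of the summed FPKM of a library. A gene was kept for the test when at least 3 of the 6 libraries passed 1.07 CPM (counts per 1000000 counts of the library), and 69 of the 109 genes were kept. Of these, 55 passed the limit in all 6 libraries, Glyma.02G029900 passed it only in the pH 4.2 libraries, and Glyma.02G309800 and Glyma.11G064400 passed it only in the pH 5.8 libraries. The 40 genes that were not kept had at most 107 counts over the 6 libraries, and 22 of them had under 10. Counts that were not whole in at least 1 library, from reads shared out between similar genes, occurred in 16 of the 109 genes.

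For most UGT genes no difference between acid-treated and control roots passed the test. A gene was called when its Benjamini-Hochberg adjusted p-value in edgeR's quasi-likelihood test was under 0.05 over all 33490 genes tested and its change was at least 2-fold. Of the 69 UGT genes tested, 1 was called higher at pH 4.2 (1.45%, against 0.227% of all genes) and 0 were called lower (0.331% of all genes), beside 0.558% of all genes called in either direction. At an unadjusted p-value under 0.05 with the same 2-fold limit, 4 were higher and 6 were lower, against 2.45% and 4.03% of all genes (6.48% in either direction). DESeq2 called 5 higher and 2 lower of the 83 it tested, which are 6.02% and 2.41%, against 1.22% and 1.55% of all genes (2.77% in either direction). Without pH 5.8 replicate 2, edgeR called 3 UGT genes higher and 2 lower of 73 tested, against 1.02% and 2.24% of all genes (3.26% in either direction). With the replicate number as a block, it called 0 of the 69 genes, against 0.0567% of all genes as higher and 0.125% as lower (0.182% in either direction). The median log2 fold change (pH 4.2 over pH 5.8) of the 69 genes was -0.04, with quartiles at -0.48 and 0.39, beside a median of -0.0027 and quartiles at -0.30 and 0.26 over all genes tested. Of the 69 genes, 34 had a positive and 35 a negative value, and 57 (82.6%) lay within a 2-fold change, as did 91.4% of all genes tested. Beyond 2-fold, 5 lay on the higher side (3.34% of all genes) and 7 on the lower side (5.28% of all genes). The 3 libraries of one pH lay wholly above the 3 of the other in 17 of the 69 genes (24.6%), against 16.4% of all genes tested, with 8 higher (7.17% of all genes) and 9 lower (9.25% of all genes) at pH 4.2. These counts include genes that passed the limit on low values at a single pH, for which the filter fixed the separation and its direction. They are Glyma.02G029900 among the higher and Glyma.02G309800 and Glyma.11G064400 among the lower genes. The same genes are in the counts beyond 2-fold and at an unadjusted p-value, and Glyma.02G029900 is the gene that edgeR called. Such genes were not taken out of the shares over all genes either.

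**Figure D1:**
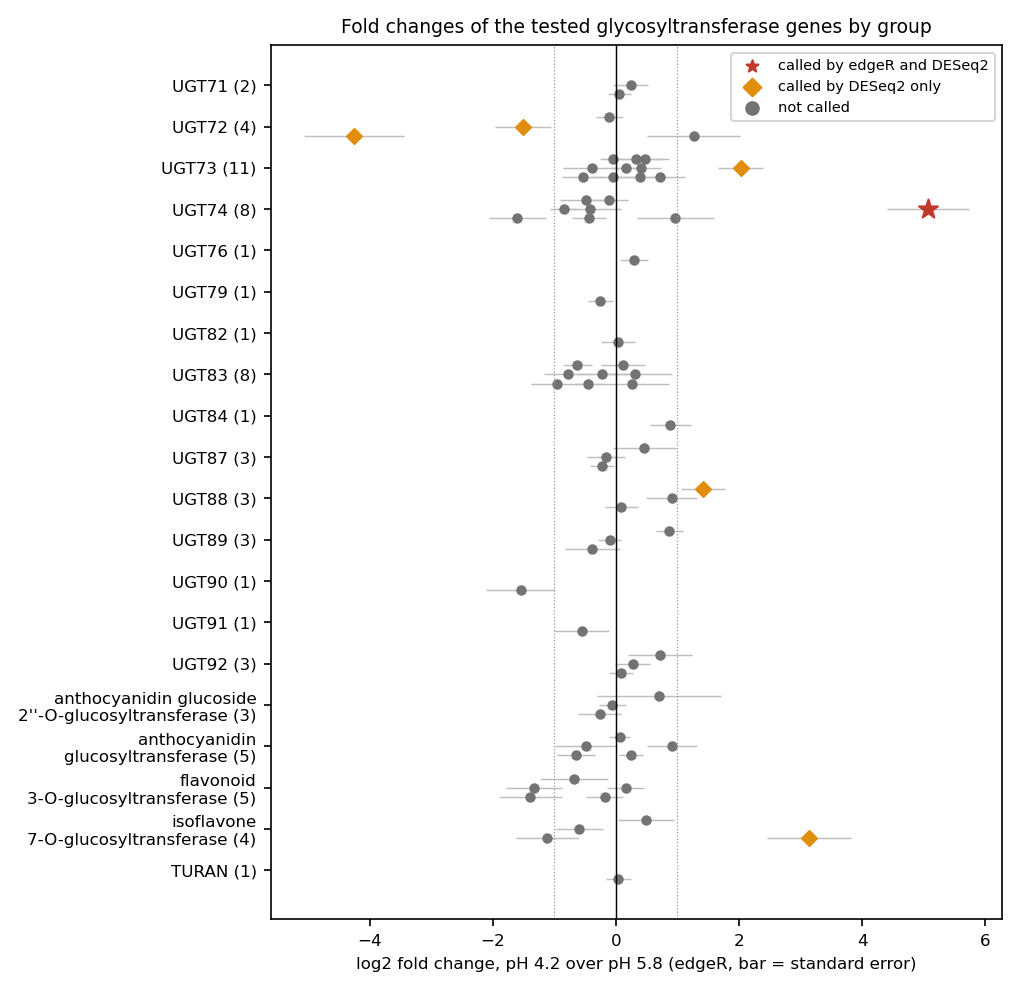
Log2 fold change (pH 4.2 over pH 5.8, x axis) of each of the 69 UGT genes tested, in rows by UGT family or acceptor with the number of genes in brackets, with the standard error as a bar and dotted lines at a 2-fold change. Of the points, 57 lie within the dotted lines, and the UGT74B1-like gene at 5.07 stands farthest to the right.

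The UGT gene that edgeR called higher at pH 4.2 was Glyma.02G029900, described as UGT74B1-like. Since it passed the limit on low values only in its pH 4.2 libraries, the filter fixed the direction of its difference, and the call was lost with any pH 4.2 library left out. In Arabidopsis, UGT74B1 adds the sulfur-linked glucose of glucosinolates, which are compounds of the mustard order and not of soybean. Glyma.02G029900 had 27, 41 and 42 counts in the pH 4.2 libraries, against 2, 1 and 0 counts in the pH 5.8 libraries. These were 3.06, 4.35 and 4.67 CPM at pH 4.2 and 0.217, 0.107 and 0 CPM at pH 5.8. Every pH 4.2 library was above every pH 5.8 library, at a low level of 4.03 ± 0.856 CPM at pH 4.2 and 0.108 ± 0.109 CPM at pH 5.8 (SD, n = 3 each). The fitted log2 fold change was 5.07 (SE 0.67, adjusted p = 0.0223 in edgeR), and the pooled counts, 110 at pH 4.2 against 3 at pH 5.8, gave a ratio of 37.9 with an exact 95% interval of 12.6 to 186.5 for counting error only. DESeq2 gave an adjusted p of 2.59e-05. With each pH 4.2 library left out in turn, edgeR's adjusted p was 0.0805, 0.136 and 0.0690, and with the replicate block it was 0.0839. The log2 fold change lay between 4.53, without pH 5.8 replicate 3, and 5.93, without pH 5.8 replicate 1, with adjusted p-values of 0.0483 and 0.0496 in these fits.

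The other gene described as UGT74B1-like, Glyma.01G036000, was too low to be tested, with 14, 8 and 5 counts at pH 4.2 and 9, 2 and 2 counts at pH 5.8. Within the UGT74 family, 8 members are described as UGT74G1-like. UGT74G1 is known from Stevia, where it glucosylates the diterpene steviol. None of the 6 tested UGT74G1-like genes was called by edgeR or DESeq2, 5 of them had a negative log2 fold change, and their median was -0.46. Chosen after their values were seen, Glyma.18G247000 had 23.9, 16.7 and 20.9 CPM at pH 4.2 and 32.5, 32.5 and 45.5 CPM at pH 5.8, and Glyma.16G158100 had 1.02, 1.91 and 2.0 CPM at pH 4.2 and 3.58, 3.65 and 7.81 CPM at pH 5.8. In both genes the groups did not overlap, with edgeR adjusted p-values of 0.168 for Glyma.18G247000 and 0.199 for Glyma.16G158100. Summed over its 11 members, the UGT74 family reached 32.0 ± 3.42 FPKM at pH 4.2 and 41.3 ± 8.37 FPKM at pH 5.8.

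UGT72 enzymes of the E subfamily glucosylate the alcohols and aldehydes from which lignin is made in Arabidopsis. Soybean had 2 genes described as UGT72E1-like, and DESeq2 called both lower at pH 4.2, while edgeR called neither. Glyma.11G064400 had 9, 6 and 4 counts at pH 4.2, against 148, 22 and 213 counts at pH 5.8. As CPM these were 1.02, 0.637 and 0.445 at pH 4.2 and 16.1, 2.36 and 22.2 at pH 5.8. This gene passed the limit on low values only in its pH 5.8 libraries, so that the filter fixed the direction here too. The groups did not overlap, but pH 5.8 replicate 2 was far closer to the acid-treated roots than the other control libraries were. The log2 fold change of Glyma.11G064400 was -4.25 (SE 0.81), with an adjusted p of 0.0770 in edgeR and 2.45e-06 in DESeq2. Without pH 5.8 replicate 2, its edgeR value was -4.74 with an adjusted p of 0.00239, so that the call of edgeR turns on that library.

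Glyma.01G177900, the more abundant UGT72E1-like gene, had 41.2, 17.2 and 13.9 CPM at pH 4.2, against 71.7, 39.8 and 93.7 CPM at pH 5.8. Here pH 4.2 replicate 1 and pH 5.8 replicate 2 lay close together, so the groups overlapped. The means were 24.1 ± 14.9 CPM at pH 4.2 and 68.4 ± 27.1 CPM at pH 5.8 (SD, n = 3 each), and the log2 fold change was -1.51 (SE 0.46), with an adjusted p of 0.222 in edgeR and 0.0427 in DESeq2. Per length, the 2 UGT72E1-like genes together reached 30.2, 13.3 and 10.5 FPKM at pH 4.2, against 60.8, 30.8 and 82.5 FPKM at pH 5.8.

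The other genes with a UGT72 number, 2 described as UGT72D1-like, were called neither by edgeR nor by DESeq2. Glyma.03G032500 had 11.7, 14.6 and 32.4 CPM at pH 4.2 and 3.69, 18.9 and 1.87 CPM at pH 5.8, a log2 fold change of 1.26 (edgeR adjusted p = 0.585). Its pH 5.8 replicate 2 again lay with the acid-treated roots, and without that library the value was 2.82 with an adjusted p of 0.0408. Glyma.03G032800, which lies close to Glyma.03G032500 on the chromosome, had a log2 fold change of -0.11 (edgeR adjusted p = 0.874). Both genes were chosen after their values were seen.

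**Figure D2:**
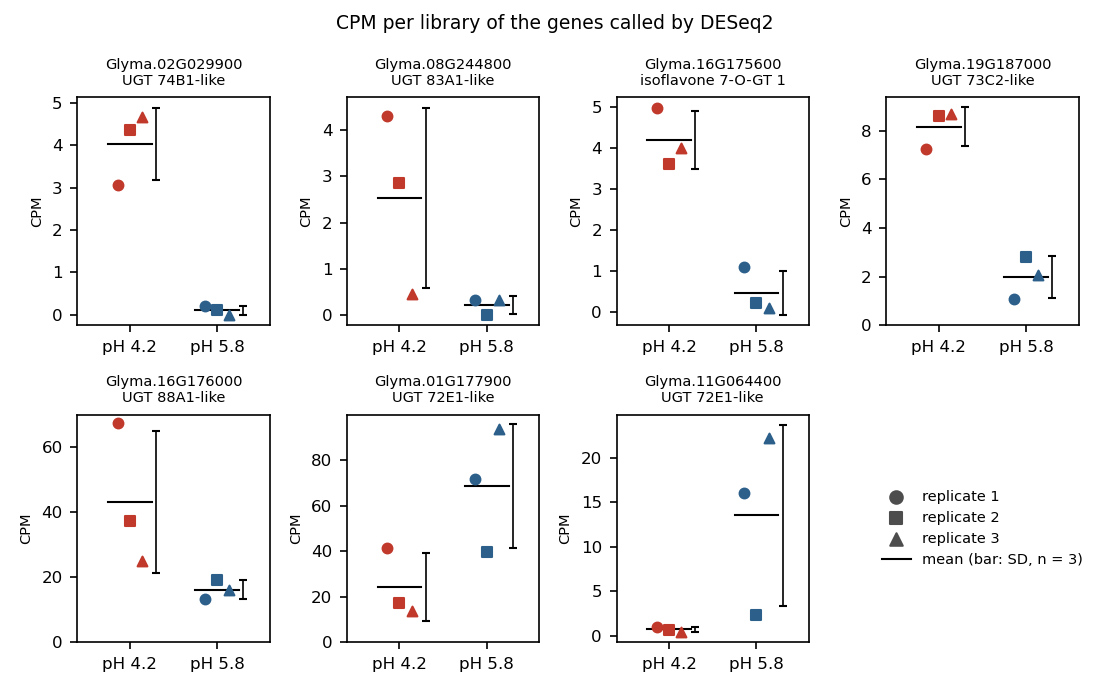
CPM in each library (y axis, a scale per panel) of the 7 UGT genes called by DESeq2, with pH 4.2 left of pH 5.8, a symbol per replicate number, and the mean with SD of 3 libraries as a line and bar. The 3 control libraries of Glyma.02G029900 lie near 0, and the square of pH 5.8 replicate 2 lies lowest of the control libraries in both UGT72E1-like genes.

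The UGT73 family held 14 members, of which 11 were tested, and 7 of these had a positive log2 fold change, with a median of 0.33. In Arabidopsis, UGT73C enzymes glucosylate brassinosteroid hormones, flavonols and the fungal toxin deoxynivalenol. Glyma.19G187000, described as UGT73C2-like, had the largest difference in the family. It had 64, 81 and 78 counts at pH 4.2, against 10, 26 and 20 counts at pH 5.8. These were 7.24, 8.60 and 8.68 CPM at pH 4.2 and 1.09, 2.79 and 2.08 CPM at pH 5.8, and the groups did not overlap. The log2 fold change was 2.03 (SE 0.37), with an adjusted p of 0.0640 in edgeR and 0.000447 in DESeq2, and without pH 5.8 replicate 2 edgeR gave 2.36 with an adjusted p of 0.0203.

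The UGT73 genes among the 5 most abundant UGT genes had overlapping values in both pH-treatments. Glyma.19G187400, described as UGT73C2, had 47.8, 34.3 and 35.3 FPKM at pH 4.2 and 23.3, 39.4 and 43.6 FPKM at pH 5.8, with a log2 fold change of 0.17 (edgeR adjusted p = 0.842). Glyma.07G254600 is UGT73F2, which in soybean adds a glucose to the sugar chain of the group A saponins. It had 24.4, 44.4 and 19.3 FPKM at pH 4.2 and 39.7, 31.2 and 20.2 FPKM at pH 5.8, with a log2 fold change of -0.04 (SE 0.35, edgeR adjusted p = 0.973). In both genes the groups overlapped. Summed over the family, UGT73 genes reached 135 ± 12.0 FPKM at pH 4.2 and 121 ± 7.65 FPKM at pH 5.8 (SD, n = 3 each).

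Isoflavone 7-O-glucosyltransferases attach glucose to daidzein and genistein in soybean. Of the 6 genes with this description, Glyma.09G127700 was the most abundant of all 109 UGT genes, at a mean of 146.4 FPKM over the 6 libraries. Its level was 176.9, 106.9 and 62.8 FPKM at pH 4.2, against 158.0, 169.1 and 205.0 FPKM at pH 5.8. Acid-treated replicate 1 was within the control range and the other 2 acid-treated libraries were below it. With means of 116 ± 57.6 FPKM at pH 4.2 and 177 ± 24.6 FPKM at pH 5.8, the log2 fold change of Glyma.09G127700 was -0.59 (SE 0.38, edgeR adjusted p = 0.614), within the spread of the replicates. This gene alone gave 21.1%, 15.0% and 10.2% of the summed FPKM of the 109 UGT genes at pH 4.2, against 21.1%, 21.6% and 23.0% at pH 5.8.

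A second isoflavone 7-O-glucosyltransferase, Glyma.16G175600, was low in control roots. It had 44, 34 and 36 counts at pH 4.2 and 10, 2 and 1 counts at pH 5.8, which were 4.98, 3.61 and 4.01 CPM at pH 4.2 and 1.09, 0.215 and 0.104 CPM at pH 5.8. The groups did not overlap, and the log2 fold change was 3.14 (SE 0.68), with an adjusted p of 0.0989 in edgeR and 0.00154 in DESeq2. Without pH 5.8 replicate 1, the highest of the control libraries, edgeR called Glyma.16G175600 at a log2 fold change of 4.61 (adjusted p = 0.0427). Neither control library of that fit passed the limit on low values, so that the filter fixed the direction of this call. The counts of Glyma.16G175600 were not whole numbers in any of the 6 libraries, so that part of its reads had been shared out between similar genes. The same held for its neighbour Glyma.16G175900, described as isoflavone 7-O-glucosyltransferase 1-like, which had 15, 5 and 14 counts at pH 4.2 and 29, 17 and 31 counts at pH 5.8. This was the opposite order, with a log2 fold change of -1.11 (SE 0.51, edgeR adjusted p = 0.452). Added together, the pair had 6.68, 4.14 and 5.57 CPM at pH 4.2 and 4.23, 2.04 and 3.33 CPM at pH 5.8, and the groups then overlapped. The value of each gene on its own is uncertain for this reason. The 6 isoflavone 7-O-glucosyltransferases summed to 127 ± 61.2 FPKM at pH 4.2 and 184 ± 27.0 FPKM at pH 5.8.

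All 3 genes with a UGT88 number had a positive log2 fold change. UGT88 enzymes glucosylate flavonoids and related phenolics, such as phloretin by UGT88F enzymes in apple and pear. Glyma.16G176000, described as UGT88A1-like, had 595, 352 and 224 counts at pH 4.2, against 123, 178 and 156 counts at pH 5.8. Its level was 67.4, 37.4 and 24.9 CPM at pH 4.2 and 13.4, 19.1 and 16.2 CPM at pH 5.8, all acid-treated libraries being above all control libraries. The acid-treated libraries themselves spread over more than the control libraries did, with 43.2 ± 21.8 CPM at pH 4.2 and 16.2 ± 2.87 CPM at pH 5.8 (SD, n = 3 each). The log2 fold change was 1.41 (SE 0.35), with an adjusted p of 0.149 in edgeR and 0.0115 in DESeq2.

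The second UGT88A1-like gene, Glyma.09G128400, had 84.2, 41.8 and 24.3 CPM at pH 4.2 and 20.4, 31.0 and 28.6 CPM at pH 5.8. Replicate 1 was again the highest of the acid-treated libraries, but replicate 3 lay within the control range, and the log2 fold change was 0.91 (edgeR adjusted p = 0.449). Glyma.06G320800, described as UGT88F4-like, had a log2 fold change of 0.09 (edgeR adjusted p = 0.918). The last 2 genes are given to complete the genes with a UGT88 number. Summed over the 3 genes, UGT88 reached 99.1, 60.9 and 45.2 FPKM at pH 4.2, against 32.2, 54.2 and 40.9 FPKM at pH 5.8, and the groups overlapped.

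UGT83 was the largest family, with 17 genes described as UGT83A1 or UGT83A1-like. Of the 8 that were tested, 0 were called by edgeR and 5 had a negative log2 fold change, with a median of -0.34. In 3 of the 8 genes every acid-treated library was below every control library, as in 9.25% of all genes tested. The largest value among them was that of Glyma.08G244600, which had 2.38, 1.27 and 1.0 CPM at pH 4.2 and 2.82, 3.22 and 3.02 CPM at pH 5.8. Its log2 fold change was -0.96 (SE 0.43, edgeR adjusted p = 0.431). Glyma.08G244800, in the same stretch of the chromosome, was too low for edgeR's filter, with 38, 27 and 4 counts at pH 4.2 and 3, 0 and 3 counts at pH 5.8. DESeq2 called it higher at pH 4.2, with a log2 fold change of 3.61 (SE 1.07, adjusted p = 0.0307), although pH 4.2 replicate 3 lay only 1 count above the highest control libraries. Outside the rule for named genes, Glyma.18G265700 had 11.8, 10.6 and 9.68 CPM at pH 4.2 and 25.3, 7.94 and 21.6 CPM at pH 5.8, and edgeR called it lower without pH 5.8 replicate 2 (log2 fold change -1.13, adjusted p = 0.0346) but not with it (-0.77, adjusted p = 0.499). Summed over its 17 genes, UGT83 had 57.6 ± 19.1 FPKM at pH 4.2 and 64.6 ± 11.8 FPKM at pH 5.8.

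Of the enzymes described by a flavonoid acceptor, flavonoid 3-O-glucosyltransferases had a negative log2 fold change in 4 of the 5 genes tested, with a median of -0.68. Among the 4 was Glyma.02G309800 at -1.33, which passed the limit on low values only in its pH 5.8 libraries, so that the filter fixed its sign. The most abundant of them, Glyma.16G033700, had 24.3, 56.3 and 40.3 FPKM at pH 4.2 and 45.7, 53.4 and 38.7 FPKM at pH 5.8, with a log2 fold change of -0.18 (SE 0.30, edgeR adjusted p = 0.844). Its lowest and its highest library were both acid-treated. The 7 genes of this description summed to 75.6 ± 20.3 FPKM at pH 4.2 and 92.2 ± 4.97 FPKM at pH 5.8. The 10 anthocyanidin glucosyltransferases, which act on the pigments themselves, summed to 54.2 ± 5.18 FPKM at pH 4.2 and 55.4 ± 2.22 FPKM at pH 5.8. The 6 anthocyanidin 3-O-glucoside 2''-O-glucosyltransferases, which lengthen the sugar chain of such pigments, summed to 12.5 ± 1.13 FPKM at pH 4.2 and 14.1 ± 4.48 FPKM at pH 5.8. Neither of these groups held a gene called by edgeR or DESeq2.

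Among the smaller families, the 3 tested UGT92 genes all had positive values between 0.09 and 0.72, and 2 of 3 tested UGT87 genes had negative ones, of which none was called. UGT89 summed to 25.9 ± 3.07 FPKM at pH 4.2 and 20.5 ± 0.557 FPKM at pH 5.8, every pH 4.2 sum being above every pH 5.8 sum. Its UGT89B2-like member Glyma.14G054400, chosen after its values were seen, had 25.7, 31.5 and 20.1 CPM at pH 4.2 and 13.1, 15.2 and 14.1 CPM at pH 5.8. The groups did not overlap, with a log2 fold change of 0.87 (SE 0.22), an adjusted p of 0.15 in edgeR and 0.0458 in DESeq2, which is under the 2-fold limit. The single TURAN gene, Glyma.15G256700, whose Arabidopsis counterpart acts in fertilization, had a log2 fold change of 0.04 (edgeR adjusted p = 0.956). Of the untested genes, 9 had no count at pH 4.2 and 5 had no count at pH 5.8, with at most 8 counts in the other group.

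**Figure D3:**
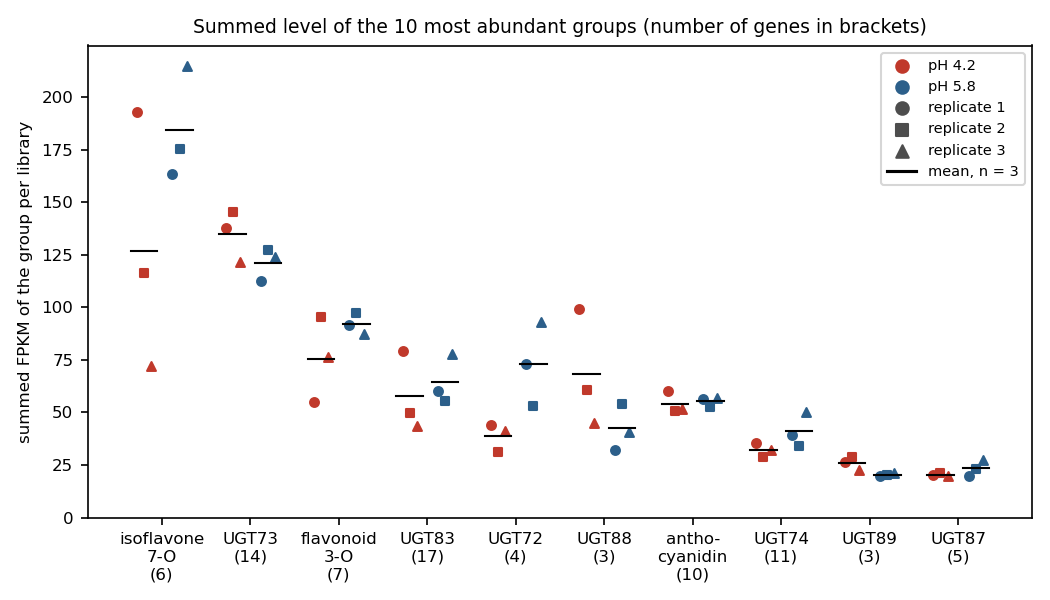
Summed FPKM per library (y axis) of the 10 UGT groups with the highest level, with the number of genes in brackets, pH 4.2 in red left of pH 5.8 in blue, a symbol per replicate number and a line at the mean of 3 libraries. The UGT72 sums were 44.2, 31.3 and 41.0 FPKM at pH 4.2, below the 73.3, 53.0 and 93.1 FPKM at pH 5.8. In the other direction, the UGT89 sums were 26.30, 28.76 and 22.65 FPKM at pH 4.2, above the 19.94, 20.42 and 21.05 FPKM at pH 5.8. The isoflavone 7-O, UGT73, UGT83 and UGT88 sums overlap.

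The 109 UGT genes of the rule together reached 1441, 1174 and 1056 CPM at pH 4.2, against 1231, 1310 and 1428 CPM at pH 5.8. The 48 glucosyltransferases and galactosyltransferases with other descriptions are not in these sums. The means of 1223 ± 198 CPM at pH 4.2 and 1323 ± 99.1 CPM at pH 5.8 (SD, n = 3 each) differed by less than the acid-treated replicates did among themselves. Without Glyma.09G127700, the sums were 1042 ± 104 CPM at pH 4.2 and 1050 ± 66.6 CPM at pH 5.8. The library with the highest value was pH 4.2 replicate 1 for 17 of the 69 genes tested (24.6%, against 13.5% of all genes) and pH 5.8 replicate 3 for 19 (27.5%, against 23.4% of all genes).

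UGT genes often stand side by side in soybean. By their RefSeq entries in the assembly Glycine_max_v4.0, 79 UGT genes could be placed one by one, and 43 of them lay in 17 runs on 11 chromosomes in which a UGT gene was followed by the next within at most 3 protein-coding genes. Among the genes placed, the longest runs held 4 genes, and genes that were not placed could lengthen a run. Among the 5 runs of at least 3 genes, those on chromosomes 8, 16, 18 and 19 held tested genes of both signs, while both tested genes of the UGT73C run on chromosome 3 were positive, at 0.73 and 0.33. Of the pairs, Glyma.19G029300 and Glyma.19G029500, also on chromosome 19, were both negative, at -0.63 and -0.46. On chromosome 19, Glyma.19G187000 at a log2 fold change of 2.03 stood beside Glyma.19G187100, described as UGT73C6, at 0.41 and Glyma.19G187500, described as UGT73C3-like, at -0.38. By their identifiers, Glyma.19G187200, described as UGT73C5, at 0.48 and Glyma.19G187400, described as UGT73C2, at 0.17 lie between the last 2, but they were not placed in this run. On chromosome 16, Glyma.16G175500, Glyma.16G175600, Glyma.16G175900 and Glyma.16G176000 formed a run of 3 isoflavone 7-O-glucosyltransferases and a UGT88A1-like gene, with values of 3.14, -1.11 and 1.41 for the 3 that were tested. Glyma.16G175500 was too low to be tested, at 14, 9 and 9 counts at pH 4.2 and 3, 1 and 3 counts at pH 5.8. A similar pair of an isoflavone 7-O-glucosyltransferase and a UGT88A1-like gene stood on chromosome 9, where Glyma.09G128300 had 0.49 and Glyma.09G128400 had 0.91. The runs of 4 UGT83A1-like genes on chromosomes 8 and 18 each held a gene of negative and a gene of positive value, -0.96 and 0.12 on chromosome 8 and -0.77 and 0.27 on chromosome 18.

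**Figure D4:**
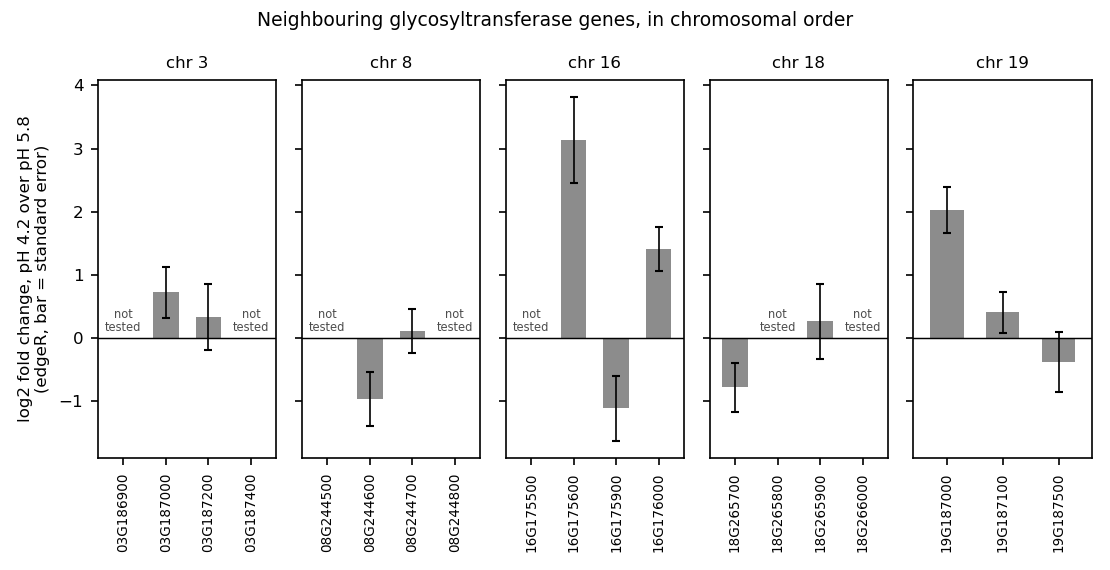
Log2 fold change (pH 4.2 over pH 5.8, y axis) with its standard error for UGT genes in the 5 chromosomal runs of at least 3 genes, in chromosomal order, with untested genes marked. In the chromosome 16 run the bars of 3.14 and 1.41 stand on either side of a bar of -1.11.

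Genes that make the acceptors, supply the sugar, modify the glucosides or remove the sugar again were counted in the same fit. So were glucosyltransferases and galactosyltransferases outside the rule for the 109 genes, and edgeR called 0 genes in each of these 5 lists. An unadjusted p under 0.05, at any fold, was found for 11.8% of all genes tested and for 14 of the 69 UGT genes (20.3%), and DESeq2 called 1.22% of all genes higher and 1.55% lower. Of the 105 genes of flavonoid and isoflavonoid synthesis, such as chalcone synthase, 66 were tested, 25 had an unadjusted p under 0.05, and DESeq2 called 11 higher and 3 lower at pH 4.2 of the 79 it tested. Their median log2 fold change was 0.37, and their summed level was 6364, 3538 and 2986 FPKM at pH 4.2, against 2649, 3006 and 3063 FPKM at pH 5.8, where pH 4.2 replicate 1 stood apart and held the highest value for 34 of the 66 genes. Of the 48 glucosyltransferases and galactosyltransferases with other descriptions, 34 were tested, 11 had an unadjusted p under 0.05, DESeq2 called 1 higher and 3 lower of 38, and the median log2 fold change was 0.10. The 55 genes described as beta-glucosidases had 41 tested genes, 5 with an unadjusted p under 0.05, and 1 of 50 called lower by DESeq2, with a median of 0.01. The gene called was Glyma.08G138300, described as a probable glucan 1,3-beta-glucosidase A, so its description names a glucan and not a small glucoside. Of the 30 genes of UDP-sugar supply, 27 were tested, 2 had an unadjusted p under 0.05, DESeq2 called 1 of 28 higher, and the median was 0.20. The 10 acyltransferases of glucosides had 8 tested genes, 2 with an unadjusted p under 0.05 and 0 of 9 called by DESeq2, with a median of -0.39.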

How the data were processed

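Per the labels and the study's methods, the authors sequenced root RNA of 6 libraries on a BGISEQ-500, used HISAT for mapping to build Williams82.a2.v1 and StringTie for transcripts, mapped reads to the extended reference with Bowtie2 and quantified genes with RSEM; versions are not given in the sources used here. The labels name a CTAB-PBIOZOL extraction and the study's methods an RNeasy kit. The deposited expected counts were estimated by RSEM and are not normalized; 85.7% to 87.2% of them per library were whole (within 0.005), the rest being reads shared between similar genes. The deposited FPKM values were derived by the authors from the same counts, the gene length and the library total.

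A gene absent from a library's list was counted as 0. Expected counts were rounded and tested with edgeR 4.0.16 in R 4.3.3 (filterByExpr, TMM, robust quasi-likelihood fit, Benjamini-Hochberg adjustment over all genes tested). Standard errors are |log2 fold change| over the square root of F. CPM are counts per 1000000 of TMM effective library size, and 3 counts equal 0.312 to 0.340 CPM. Alternatives were DESeq2 1.42.0 (the authors' test), limma 3.58.1 on log2 FPKM with a pseudocount of 0.1 or of 1, a scale that understates the change of low genes, other filters and size factors, a replicate block, unadjusted p-values, stricter membership and each library left out. With 3 libraries against 3, an exact permutation test of a single value cannot go below p = 0.1, so sums are given without a test. The replicate numbers shared by both groups were not taken as pairs. The tests were first checked on simulated counts.

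UGT genes and gene lists were chosen by words in the gene descriptions, with earlier results of these data known. Named are genes called by edgeR or DESeq2, the 5 with the highest mean FPKM, and the tested gene of largest change in each family with at least 5 tested genes and among those without a number; other genes complete a family or a chromosomal run or are marked as chosen after their values were seen. Gene order was taken from RefSeq entries matched through protein accessions (88 of 109 genes); since the builds differ, no coordinates are given.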

Additional observations from a re-analysis of the deposited data

How the results depend on the processing

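The count of UGT genes called higher at pH 4.2, 1 in edgeR, was 3 with no filter on low counts, 0 with a mean count of at least 50 (a filter that Glyma.02G029900 did not pass), 5 with DESeq2, 2 with limma-trend on log2(FPKM + 1), 0 with the replicate block, 4 with unadjusted p-values, and between 0 and 3 with each library left out. The count called lower, 0 in edgeR, was 2 with DESeq2, 6 with unadjusted p-values, and between 0 and 2 with each library left out. The calls added without pH 5.8 replicate 2 were Glyma.03G032500 and Glyma.19G187000 as higher and Glyma.11G064400 and Glyma.18G265700 as lower, when 3.26% of all genes were called. Glyma.16G175600 was called as higher without pH 5.8 replicate 1, with no filter and with limma-trend on log2(FPKM + 1). In the fit without pH 5.8 replicate 1, this gene passed the limit on low values only in pH 4.2 libraries. The share of all genes called, 0.558%, was 2.77% with DESeq2, 0.182% with the block, 6.48% with unadjusted p-values and 0.0204% to 3.26% with a library left out. The 5 gene lists held 2 called genes with no filter, 20 with DESeq2 and 0 to 10 with a library left out. The causes of these differences were not tested.

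The median log2 fold change of the tested UGT genes, -0.04, was 0.070 with no filter, which added the low genes, and lay between -0.04 and 0.04 with a library left out. The log2 ratio of their mean summed CPM, -0.11, lay between -0.25 and -0.02. With single libraries left out, the log2 fold change of Glyma.07G254600 lay between -0.43 and 0.21, that of Glyma.16G033700 between -0.47 and 0.073, and that of Glyma.19G187400 between -0.052 and 0.34, so that these values near 0 took both signs. The adjusted p of Glyma.02G029900 was 0.0839 with the replicate block. Libraries of the same number did not deviate together, with correlations of -0.135, -0.0543 and -0.373. The other alternatives, among them RLE size factors and stricter membership, changed none of these counts by over 1.5 times. A word list for beta-glucosidases that had also caught glucan endo-1,3-beta-glucosidases was narrowed after its values were seen. Genes with few counts, such as Glyma.02G029900 and Glyma.08G244800, are limited by depth.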
